A study of Ovis aries with 3 samples.

Results

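The 10 transcripts described here were listed by the study under the gene ontology term cholesterol homeostasis and were measured in the duodenum, cecum and colon of sheep. They were taken by their RefSeq identifiers from the 83089 transcripts with reads in the deposited exon files. Of the 26 transcripts in that list, 10 were followed exon by exon, another 11 were in the files and are summarised further down, and 5 were not matched to the files. The list was drawn by the study from transcripts that differed between the duodenum and the large intestine, partly on these same libraries. The direction of a member against the duodenum is therefore a description and not independent evidence.

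Each region was represented by 1 pooled library of total RNA from the mucosal epithelium of 3 small-tailed Han ewes aged 11 months. The 3 libraries came from the same 3 ewes and differ in the labels by region alone, and the colon tissue came from the proximal part. Libraries of Texel sheep, which the study also used, were not analysed here. With 1 library per region there was no replicate error, so the intervals below cover only the sampling of reads, and the calls between regions compare these libraries and not the regions at large. The intervals treat reads summed over exons as independent and may be too narrow where spliced reads count on several exons.

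Cholesterol reaches the enterocyte, the absorptive cell of the gut lining, from bile and diet, is taken up at the brush border, and is either pumped back into the lumen or esterified and packed with triglyceride into chylomicrons for export to lymph. Apolipoproteins coat these particles, ATP-binding cassette (ABC) half-transporters return sterols to the lumen or load them onto high-density lipoprotein, and lipases of the vessel wall later break the particles down. The small intestine is the main site of this absorption, while the large intestine absorbs little dietary fat.

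Through RefSeq, 7 of the 10 identifiers were matched to a symbol. These were APOA4, APOC3, ABCG5, ABCG1, LIPG, LPL and CAV3, and the other 3 transcripts, XM_004009676.2, XM_012188290.1 and XM_012096078.1, are given by identifier alone. Of the 10 transcripts, 7 were highest in the duodenum, by 3.06-fold or more over either part of the large intestine, and LPL, ABCG1 and CAV3 were lowest there. The levels are given as RPKM, the reads on the exons of a transcript scaled by its exon length in kilobases and by the depth of the library. Summed over their exons, the 10 transcripts together held 65775 reads in the duodenum, 0.129% of the read total. The sums were 2708 reads in the cecum (0.00585%) and 3905 reads in the colon (0.00725%). In the duodenum 6 of the 10 reached 10 RPKM, while 0 of 10 did so in either part of the large intestine, where 4 were under 1 RPKM.

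**Figure D1:**
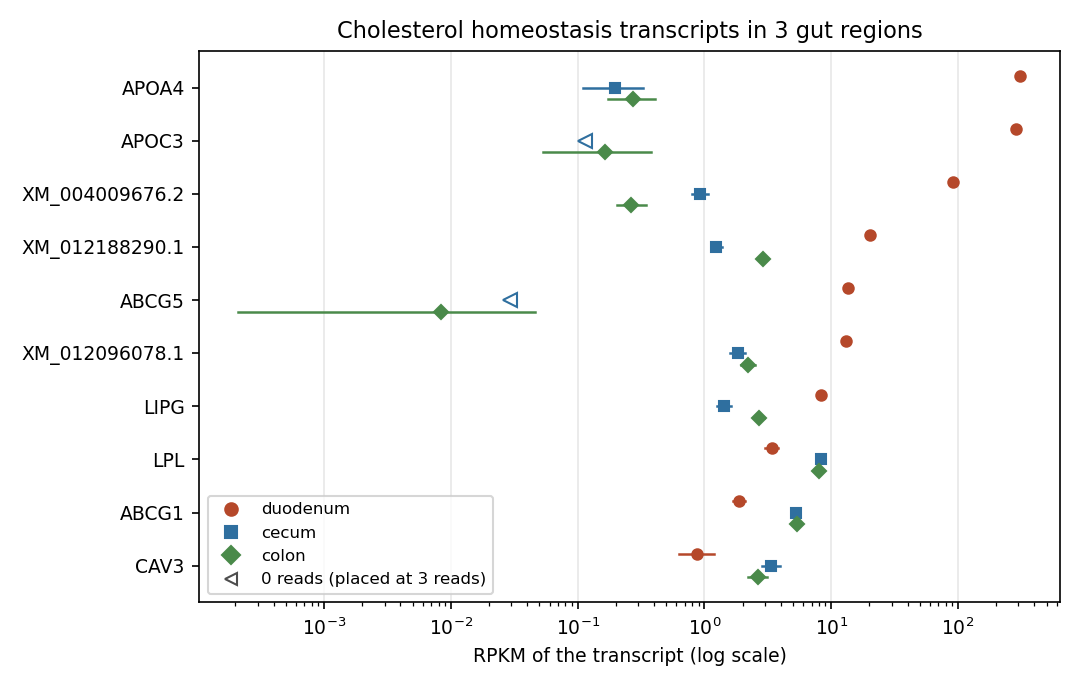
RPKM (log scale) of each of the 10 transcripts in the duodenum (circles), cecum (squares) and colon (diamonds), with lines for the 95% read-sampling interval and open triangles at the level of 3 reads where a library held 0 reads. The 7 upper transcripts lie furthest right in the duodenum, from 308 RPKM for APOA4 to 8.32 RPKM for LIPG, and LPL, ABCG1 and CAV3 lie furthest left there.

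The read totals were 50.8 M (M for mega) for the duodenal library, 46.3 M for the cecal and 53.8 M for the colonic one. The 3 reads set as the bound for a count of 0 corresponded to between 5.57e-06% and 6.48e-06% of a total. The epithelial marker EPCAM was between 550 and 596 RPKM in the 3 libraries, and KRT8 and KRT20 were at 257 RPKM or more. FABP2, which marks small intestinal enterocytes, was at 1313 RPKM in the duodenum and at 0.503 and 0.427 RPKM in the cecum and colon. SLC26A3, the chloride exchanger of the colonocyte, was at 7.80 RPKM in the duodenum and at 49.5 and 53.7 RPKM in the cecum and colon. Other markers of these cells separated the libraries to differing degrees, given here for the duodenum, cecum and colon in that order. LCT, listed for enterocytes, was at 2.84, 0.0735 and 0.111 RPKM, and AQP8, listed for colonocytes, at 2.68, 8.03 and 16.2 RPKM. The enterocyte glucose transporter SLC5A1 was at 71.4, 41.3 and 51.9 RPKM, and SLC5A8, listed for colonocytes, at 0.716, 0.796 and 2.51 RPKM. TFF2, listed for the duodenal Brunner gland, was highest in the colon, at 1470, 2060 and 127200 RPKM, and muscle markers were present in all 3 libraries.

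A locus was called between 2 libraries when its RPKM differed at least 2-fold and the Audic-Claverie test, which compares read numbers of 2 libraries, gave a false discovery rate below 0.001. Among the 16374 loci with at least 1 RPKM in a region, 11.2% were called higher in cecum than in duodenum and 6.67% in the opposite direction. Between colon and duodenum, 9.15% were called with the colon on top and 7.32% with the duodenum on top. All 10 members passed both comparisons with the duodenum, 3 as higher in the large intestine and 7 as higher in the duodenum, a count that the choice of the list fixes and from which nothing is read. Within the large intestine, 2.91% of loci were called with the cecum on top and 3.03% with the colon on top, and of the members 1 was called each way and 8 were not called. The median log2 ratio of the members was -3.44 when the cecum and -2.68 when the colon was divided by the duodenum, beside 0.05 and -0.02 over all loci. The choice of the list shapes these 2 medians of the members too, and nothing is read from them. For the cecum divided by the colon it was -0.37 (-0.15 with the transcripts at 0 reads set to their bound), beside 0.09 over all loci. With an assumed coefficient of variation of 0.4 between animals, which 1 pooled library cannot give, edgeR's exact test kept neither call against the duodenum for LPL, ABCG1, CAV3, LIPG and XM_012096078.1.

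APOA4, an apolipoprotein of chylomicrons made by the absorptive cells of the small intestine, was the most abundant member. It was at 308 RPKM in the duodenum (25708 reads), at 0.197 RPKM in the cecum (15 reads) and at 0.272 RPKM in the colon (24 reads). The duodenal level was 1561-fold that of the cecum (95% interval 947 to 2790) and 1134-fold that of the colon (762 to 1771). APOA4 ranked 265th by RPKM among the loci of the duodenum and 19366th and 18687th among those of the cecum and colon. Its 3 exons were at 339, 611 and 119 RPKM in the duodenum, whereas of the 39 reads in both large intestinal libraries all but 1 lay on exon 1, the longest with 1125 bp. The cecum and colon could not be ordered for APOA4, with a log2 ratio of -0.46 and an interval of -1.50 to 0.53.

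APOC3 encodes an apolipoprotein that inhibits lipoprotein lipase and the clearance of triglyceride-rich particles. It was at 286 RPKM in the duodenum (8265 reads), had 0 reads in the cecum, and was at 0.164 RPKM in the colon (5 reads). The level in the duodenum was at least 2510-fold that of the cecum, taking 3 reads as the bound, and 1750-fold that of the colon (750 to 5392). All 4 exons carried reads in the duodenum, at 134 to 401 RPKM, and 3 of the 4 held the 5 reads of the colon. In the files APOC3 (26973491 to 26976097) lay 5048 bases from APOA4 (26965392 to 26968442), with 0 genes between them in RefSeq order. APOA1, the main protein of high-density lipoprotein and no member of the list, began 16933 bases beyond APOC3, with 1 gene between. APOA1, named for this position and after its values were seen, was at 229 RPKM in the duodenum, 2.91 RPKM in the cecum and 2.54 RPKM in the colon. The 3 apolipoprotein genes were thus each far higher in the duodenal library, with APOA1 keeping a higher level in the large intestine than APOA4 and APOC3. Apolipoproteins are also made by the liver, and ALB, the defining hepatocyte marker, was at 0.986, 0.0221 and 0.476 RPKM in the duodenal, cecal and colonic library. Of the other 2 hepatocyte markers, TTR was at 1.97, 0.759 and 5.60 RPKM and SERPINA1 at 9.79, 12.5 and 28.3 RPKM, and the 3 pancreatic acinar markers summed to 0.468, 0 and 0.0145 RPKM.

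ABCG5 forms with ABCG8 the sterol pump of the apical membrane that returns cholesterol and plant sterols to the gut lumen. ABCG5 was at 13.6 RPKM in the duodenum (1539 reads), had 0 reads in the cecum and 1 read in the colon, at 0.00833 RPKM. The duodenal level was at least 468-fold that of the cecum, with 3 reads as the bound, and 1630-fold that of the colon, with a counting interval of 292 to 64410 that rests on the single read. All 13 exons of ABCG5 had reads in the duodenum, at 8.58 to 17.6 RPKM, and the read of the colon lay on exon 10. ABCG8, the partner gene, lay 199 bases away in the files (80330654 to 80351273, against 80351473 to 80384272 for ABCG5). It was at 19.1 RPKM in the duodenum, 0.153 RPKM in the cecum and 0.764 RPKM in the colon. ABCG8 was called higher in the duodenum than in either other library, with log2 ratios of -6.97 and -4.65, and higher in the colon than in the cecum, with a log2 ratio of -2.32 for cecum over colon. For ABCG5 no fold between the cecum and colon can be given, since both lay under 3 reads.

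ABCG1 encodes the half-transporter that passes cellular cholesterol to high-density lipoprotein and is known from macrophages. It went the other way, with 1.87 RPKM in the duodenum (342 reads), 5.32 RPKM in the cecum (886 reads) and 5.37 RPKM in the colon (1040 reads). The cecum was 2.84-fold above the duodenum (2.51 to 3.23) and the colon 2.87-fold (2.54 to 3.25). The cecum and colon lay together, with a log2 ratio of -0.01 and an interval of -0.15 to 0.12. Of the 15 exons, 14 exceeded the duodenum in the cecum and 15 did so for the colon. The exception was exon 1 of 65 bp, at 2.53 RPKM in the duodenum and 2.36 RPKM in the cecum, which held 8.35 and 7.10 reads. Over the 15 exons, Pearson's r of the levels was 0.19 for the duodenum with the cecum and -0.02 for the duodenum with the colon. For the cecum with the colon it was 0.50.

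LPL encodes lipoprotein lipase, which is bound to the capillary wall and releases fatty acids from chylomicrons. It was at 3.41 RPKM in the duodenum (284 reads), 8.33 RPKM in the cecum (631 reads) and 8.02 RPKM in the colon (707 reads). The cecum was 2.44-fold above the duodenum (2.12 to 2.82) and the colon 2.35-fold (2.05 to 2.71), while the log2 ratio of cecum to colon was 0.05 (-0.10 to 0.21). The exon levels of LPL ran alike in the 3 libraries, with Pearson's r of 0.97 to 0.99 over the 11 exons. These exons share a library, their lengths and their base composition, and the weight of the high exon 1 in r was not tested. Exon 1, of 43 bp and so shorter than a read of 100 bases, was the highest in each library, at 11.7, 26.8 and 28.5 RPKM. It held 25.5, 53.3 and 66.0 reads, fewer than exon 6 of 235 bp with 43.8, 78.5 and 93.5 reads. All 11 exons exceeded the duodenum in the cecum, and so did the 10 exons with at least 1 RPKM in the colon or duodenum. Exon 11, left out by that limit, held 1 read in each of these 2 libraries, at 0.323 RPKM in the duodenum and 0.305 RPKM in the colon.

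CAV3 encodes caveolin-3, the membrane scaffold of caveolae in striated and smooth muscle. It had the fewest duodenal reads of the 10, with 0.868 RPKM (42.6 reads), and was at 3.37 RPKM in the cecum (151 reads) and 2.64 RPKM in the colon (137 reads). The cecum was 3.89-fold above the duodenum (2.73 to 5.54) and the colon 3.04-fold (2.12 to 4.34). The 2 exons differed in their levels in the duodenum, with exon 1 of 726 bp at 0.643 RPKM and exon 2 of 240 bp at 1.55 RPKM. Without exon 1, which held most of the reads, the log2 ratio of cecum over duodenum was 1.19 in place of 1.96 and the call between those 2 libraries was lost.

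Markers of other cell types are given beside LPL, ABCG1 and CAV3, and they did not all go the same way. Of 4 smooth muscle markers measured, 4 were called above the duodenum in the cecum and 3 were in the colon, and their summed level was 703 RPKM in the duodenum, 3558 RPKM in the cecum and 2387 RPKM in the colon. Desmin (DES), the intermediate filament of muscle, was at 199, 1376 and 901 RPKM in the same order. Of 3 fibroblast markers, 3 were called higher in the cecum and 1 higher for the colon, with sums of 318, 1118 and 572 RPKM, and PECAM1, the endothelial marker measured, was at 21.0, 55.3 and 32.4 RPKM. Of 3 adipocyte markers, 2 were called higher in each part of the large intestine, with sums of 9.67, 22.6 and 32.5 RPKM, and CIDEC, a lipid droplet protein, was at 3.06, 2.23 and 2.81 RPKM. Of 4 leukocyte markers, 0 were called higher in either part of the large intestine, and CD14, a marker of monocytes and macrophages, was at 12.6, 24.9 and 15.9 RPKM. CD3E of T cells was at 111, 68.4 and 56.9 RPKM, CD79A of B cells at 31.6, 21.7 and 36.2 RPKM, and JCHAIN of plasma cells, called higher in the duodenum than in the colon, at 6626, 3659 and 663 RPKM. The 4 epithelial markers had median log2 ratios of 0.54 and 0.29 against the duodenum for the cecum and colon. Among them EPCAM was at -0.08 and 0.03, KRT8 at 0.99 and 0.54, KRT20 at 0.09 and -0.71, and CDX1, called higher in both, at 2.26 and 2.21. None of these markers was at 0, and their part in the levels of LPL, ABCG1 and CAV3 was not tested. In such tissue, fewer cells of a type and less RNA per cell cannot be told apart.

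**Figure D2:**
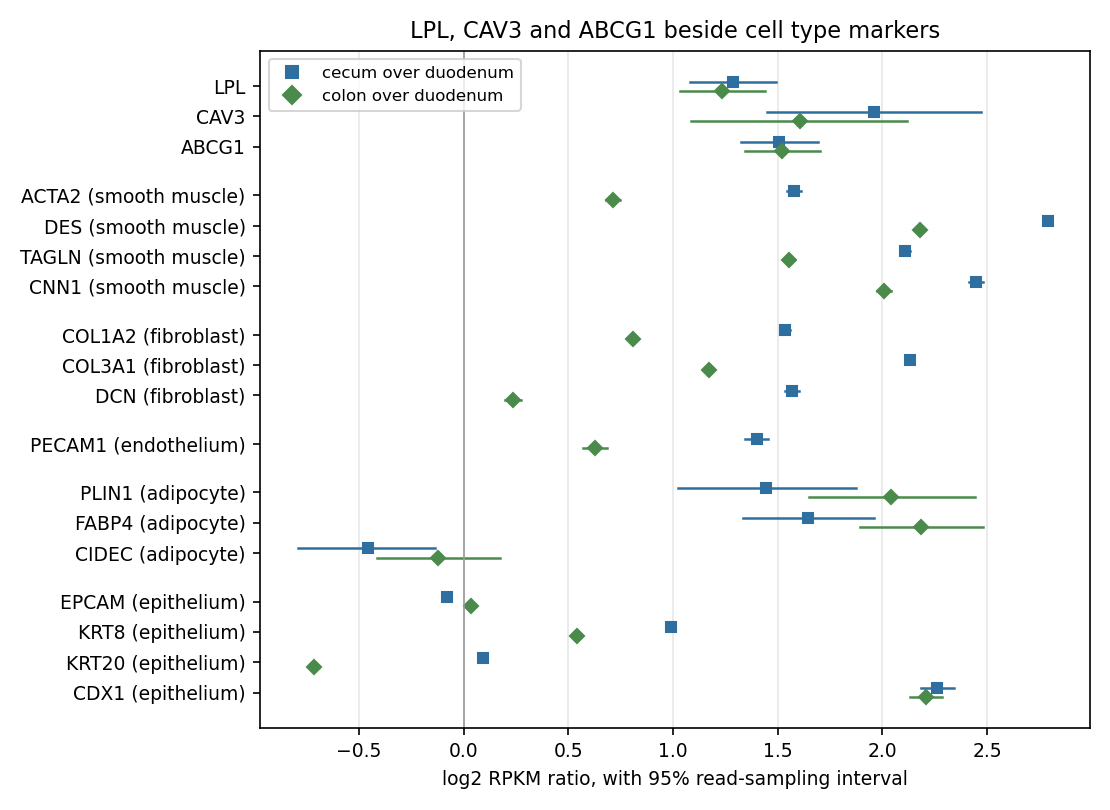
Log2 RPKM ratios over the duodenum of LPL, CAV3 and ABCG1 and of markers of 5 cell types, for the cecum (squares) and colon (diamonds), with lines for the 95% read-sampling interval. The 3 transcripts lie between 1.23 and 1.96. The smooth muscle markers range from 0.71 for ACTA2 in the colon to 2.79 for DES in the cecum. The fibroblast markers range from 0.236 for DCN in the colon to 2.13 for COL3A1 in the cecum. The adipocyte markers range from -0.457 for CIDEC in the cecum to 2.185 for FABP4 in the colon. The 4 epithelial markers range from -0.71 for KRT20 in the colon to 2.26 for CDX1 in the cecum. Each of these ranges holds the 3 transcripts.

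LIPG encodes endothelial lipase, a phospholipase that acts on high-density lipoprotein. Unlike LPL, a lipase of the same family, it was highest in the duodenum, at 8.32 RPKM (1605 reads), with 1.43 RPKM in the cecum (252 reads) and 2.72 RPKM in the colon (556 reads). The duodenum was 5.81-fold above the cecum (5.08 to 6.65) and 3.06-fold above the colon (2.77 to 3.37). The colon was 1.90-fold above the cecum (1.63 to 2.21), short of the 2-fold limit of the call, and 9 of the 10 exons compared lay in that direction. Exon 1 of LIPG, of 508 bp, was at 0.741 RPKM in the duodenum, while exons 2 to 11 were at 7.31 to 21.7 RPKM there. PECAM1, the 1 matched marker of the endothelium after which the lipase is named, went the other way from LIPG. PECAM1 was at 21.0 RPKM in the duodenum, 55.3 RPKM in the cecum and 32.4 RPKM in the colon, where it was not called over the duodenum. The cell source of the LIPG reads was not tested.

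XM_004009676.2, which the study also listed under fat digestion and absorption, was the third most abundant member in the duodenum, at 92.1 RPKM (19180 reads). It was at 0.927 RPKM in the cecum (176 reads) and 0.266 RPKM in the colon (58.5 reads), so the duodenum was 99.4-fold above the cecum (85.6 to 116) and 347-fold above the colon (267 to 452). It was the member that was called higher in the cecum than in the colon, by 3.49-fold (2.57 to 4.74). All 18 exons had reads in the cecum and 15 had reads in the colon, and the share of exon length covered by reads was 99.8% for the duodenal, 85.7% for the cecal and 56.4% for the colonic library. Of the 10 exons that could be compared within the large intestine, 9 had their higher level in the cecum. The exception was exon 16, at 0.529 RPKM in the cecum and 1.07 RPKM in the colon. Over the 18 exons, Pearson's r of the levels was 0.18 for the duodenum with the cecum and 0.15 for the duodenum with the colon. For the cecum with the colon it was -0.135. The cecal and colonic levels rest on few reads, so r does not separate counting error from a different profile.

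XM_012188290.1, spread over 41 exons and 599405 bases in the files, was at 20.4 RPKM in the duodenum (7307 reads), 1.24 RPKM in the cecum (405 reads) and 2.91 RPKM in the colon (1106 reads). The duodenum was 16.4-fold above the cecum (14.9 to 18.2) and 6.996-fold above the colon (6.57 to 7.46). It was the member that was called higher in the colon than in the cecum, by 2.35-fold (2.10 to 2.64), and 37 of the 40 exons compared lay in that direction. Exon 37, of 68 bp and so shorter than a read of 100 bases, was the highest in both the duodenum (66.0 RPKM) and the colon (12.5 RPKM). By reads it did not stand out, with 228 and 45.6 reads there beside 266 and 40.05 reads on exon 36 of 127 bp. In the cecum 38 of the 41 exons had reads, and the highest was exon 14, at 6.59 RPKM against 3.53 RPKM in the colon. Over the 41 exons, Pearson's r of the levels was 0.86 for the duodenum with the colon. It was 0.31 for the duodenum with the cecum and 0.38 for the cecum with the colon. The cecal levels rest on 405 reads in all, so r there does not separate counting error from a different profile. These values describe exons of 1 transcript that share their length and base composition.

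**Figure D3:**
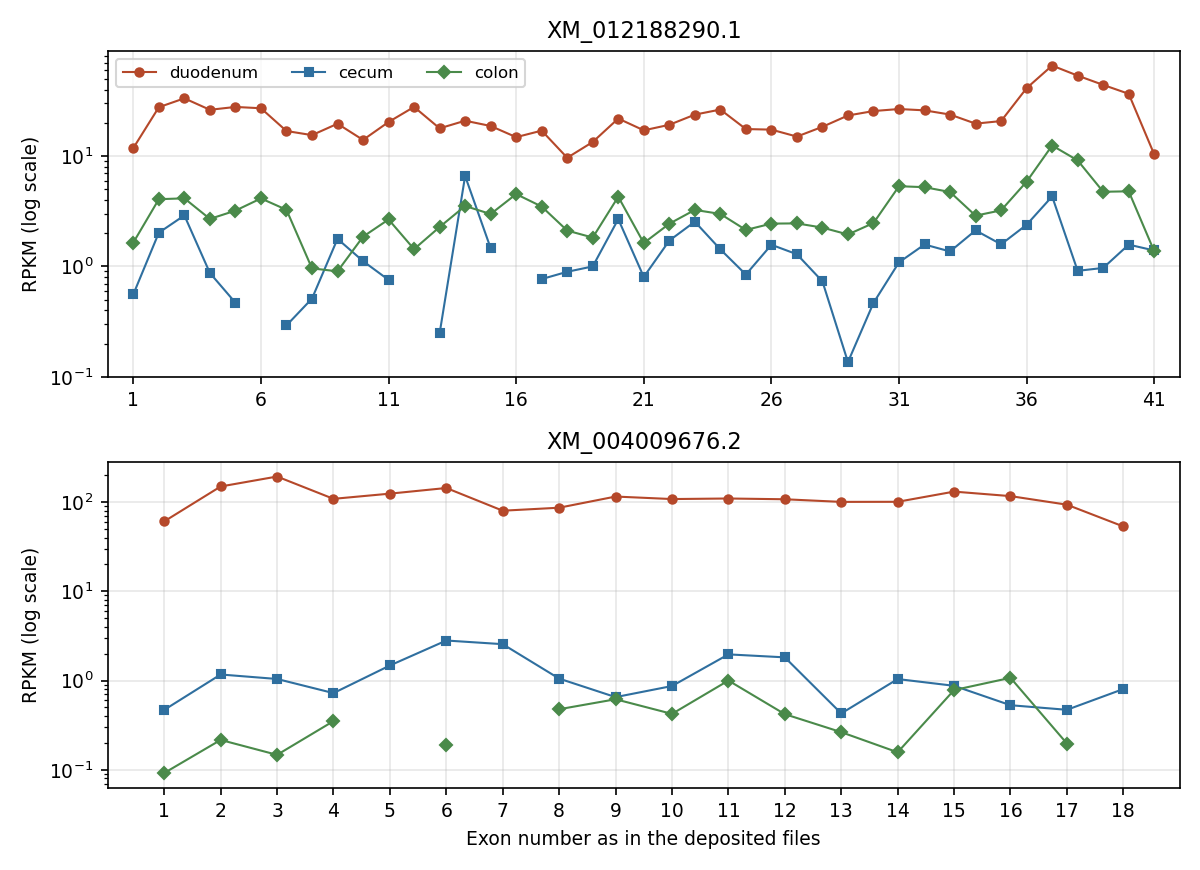
RPKM (log scale) of each exon of XM_012188290.1 (41 exons) and XM_004009676.2 (18 exons) in the duodenum (circles), cecum (squares) and colon (diamonds), numbered as in the deposited files, with gaps where a library held 0 reads. The duodenum lies above the other libraries at every exon of both, the colon lies above the cecum at most exons of the first transcript, and the cecum above the colon at most exons of the second.

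XM_012096078.1, which the study also listed under glycerolipid metabolism, was at 13.0 RPKM in the duodenum (1502 reads), 1.83 RPKM in the cecum (192 reads) and 2.22 RPKM in the colon (270 reads). The duodenum was 7.13-fold above the cecum (6.13 to 8.33) and 5.88-fold above the colon (5.17 to 6.73). The cecum and colon differed by a log2 ratio of -0.28, with an interval of -0.55 to -0.003, and without exon 8, which held more reads than any other exon, that ratio was 0.04. The 7 exons of this transcript were at 8.93 to 26.7 RPKM in the duodenum, each above both other libraries.

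Over the 10 transcripts the exons went the same way as the whole transcript against the duodenum. Of 125 exons, 124 had at least 1 RPKM in the cecum or duodenum, and 123 of these lay in the direction of their transcript. Of 123 such exons in the colon or duodenum, 123 did. Between cecum and colon 74 of 95 exons did, and the remaining 21 came mostly from LPL and ABCG1, of which 5 of 11 and 7 of 15 exons lay against a transcript ratio near 0. Exons of a transcript share spliced reads and a library and are no replicates.

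**Figure D4:**
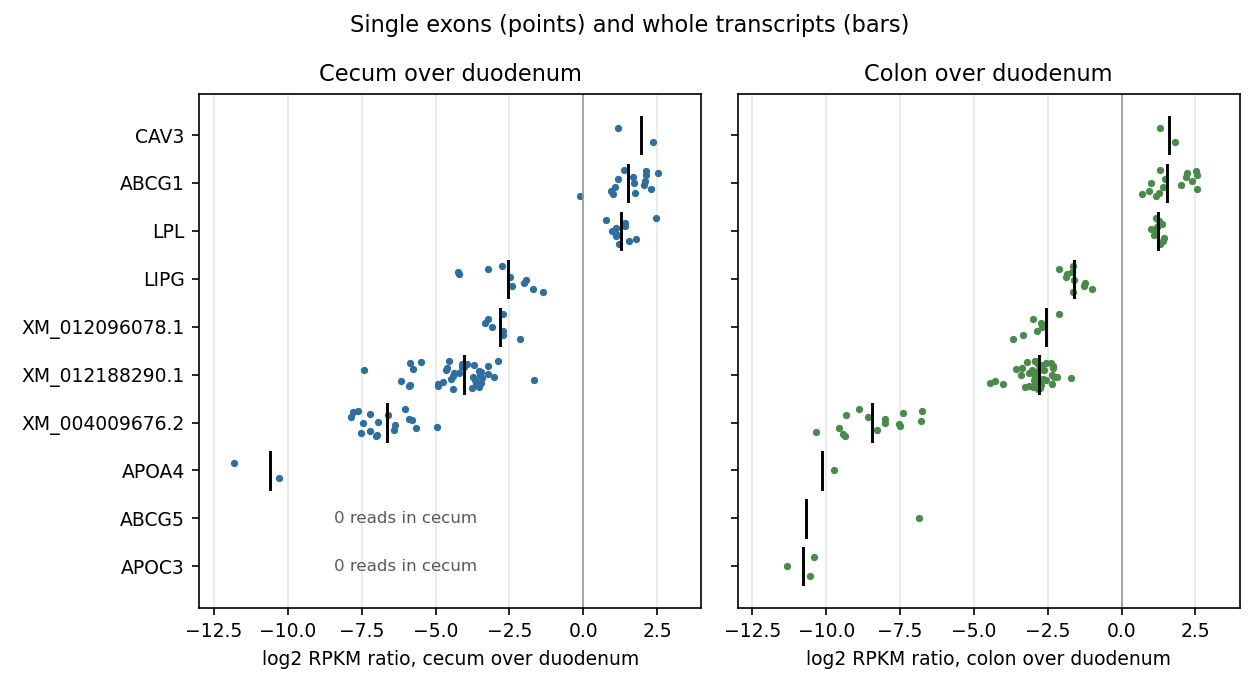
Log2 RPKM ratio over the duodenum of single exons (points) and of the whole transcript (bars), for the cecum and colon, for exons with at least 1 RPKM in either library and reads in both. The points of each transcript lie on the side of its bar, except exon 1 of ABCG1 in the cecum at -0.10, and ABCG5 and APOC3 have no point in the cecum, where they held 0 reads.

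The other genes of cholesterol handling were read from 6 lists of 91 symbols, of which 40 were matched and 39 reached 1 RPKM. Leaving the members out, 33 genes remained, of which SOAT1, SOAT2 and LCAT also stand in the study's cholesterol homeostasis list, so that their directions are no independent evidence either. Of the 33, 2 were called above the duodenum in the cecum and 8 below it, beside 11.2% and 6.67% of all loci. For the colon 3 were called above the duodenum and 8 below it, beside 9.15% and 7.32%. Within the large intestine 1 was called with the cecum on top and 3 with the colon on top, beside 2.91% and 3.03%. These shares over all loci also stand beside the counts of the single lists below. The median log2 ratio of the 33 was -0.35 for the cecum and -0.58 for the colon against the duodenum, and 0.08 for the cecum against the colon. Over all loci these medians were 0.05, -0.02 and 0.09.

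Of 21 listed genes of cholesterol synthesis 10 were matched. All 10 had lower levels in the cecum and colon than in the duodenum, by less than 2-fold except for PMVK in the cecum. HSD17B7 in the cecum could not be ordered, with a log2 ratio of -0.07 and an interval of -0.20 to 0.07. The smallest differences in the colon were -0.14 for FDFT1 and -0.16 for LBR. For comparison, leaving the 10 loci with the most reads out of the read total moved the colon ratio of LPL from 1.23 to 1.34. Of 10 enzymes measured, 1 was called in any comparison, PMVK (phosphomevalonate kinase), with 11.2 RPKM in the duodenum, 5.57 RPKM in the cecum and 7.79 RPKM in the colon. EBP and FDPS, enzymes of the same pathway, were at 73.9, 54.3 and 43.4 RPKM and at 27.9, 20.01 and 16.6 RPKM in the same order, below the 2-fold limit. The median log2 ratio of the 10 enzymes was -0.33 for the cecum and -0.52 for the colon over the duodenum.

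For sterol uptake and transport, NPC1L1, the cholesterol importer of the brush border, was at 10.3 RPKM in the duodenum and at 0.0510 and 0.130 RPKM in the cecum and colon, with log2 ratios of -7.65 and -6.30. LIPA, the lysosomal acid lipase, was at 69.8, 85.1 and 52.0 RPKM and was not called.

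Among the 5 sterol exporters, 2 were called above the duodenum in cecal RNA and 1 in colonic RNA, and 2 were called below it in each, counting the members ABCG5 and ABCG1, whose calls the choice of the list fixes. ABCA1, which loads cholesterol onto APOA1 and is named here, like ABCG4, after its values were seen, was at 4.26, 8.60 and 7.56 RPKM, with a call for the cecum at a log2 ratio of 1.01 and none for the colon at 0.83. The apical pump genes ABCG5 and ABCG8 thus had their highest level, and ABCG1 and ABCA1 their lowest, in the duodenal library. ABCG4 was at 2.25, 2.14 and 1.29 RPKM and was not called.

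Of the 13 genes of esterification and lipoproteins, 1 was called above the duodenum in cecal RNA and 3 in colonic RNA, and 5 were called below it in each, counting the members APOA4, APOC3, LIPG and LPL. SOAT2, the cholesterol-esterifying enzyme of the absorptive cell, was at 20.1 RPKM in the duodenum, 0.142 RPKM in the cecum and 0.385 RPKM in the colon. SOAT1, the related enzyme found in most tissues, was named after its values were seen and was at 11.3, 17.2 and 31.2 RPKM, with a call for the colon over the duodenum at a log2 ratio of 1.47. The 2 esterifying enzymes thus had their highest level in different libraries. Among the 6 regulators, 2 were called, both chosen after their values were seen. NR0B2, a nuclear receptor of bile acid feedback, was at 9.09 RPKM in the duodenum, 0.681 RPKM in the cecum and had 0 reads in the colon, and NR1H4, the bile acid receptor, was at 1.17, 0.994 and 0.550 RPKM. PPARG, NR1H3 and HNF4A, factors that act on lipid and sterol genes, were not called, at 16.0, 29.5 and 26.2 RPKM, at 20.8, 13.7 and 16.5 RPKM, and at 97.4, 69.8 and 85.7 RPKM. SREBF2 was not matched. The 2 subunits of the basolateral bile acid exporter went opposite ways, with SLC51A at 11.2, 47.4 and 46.0 RPKM and SLC51B, named after its values were seen, at 9.23, 4.40 and 4.45 RPKM.

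**Figure D5:**
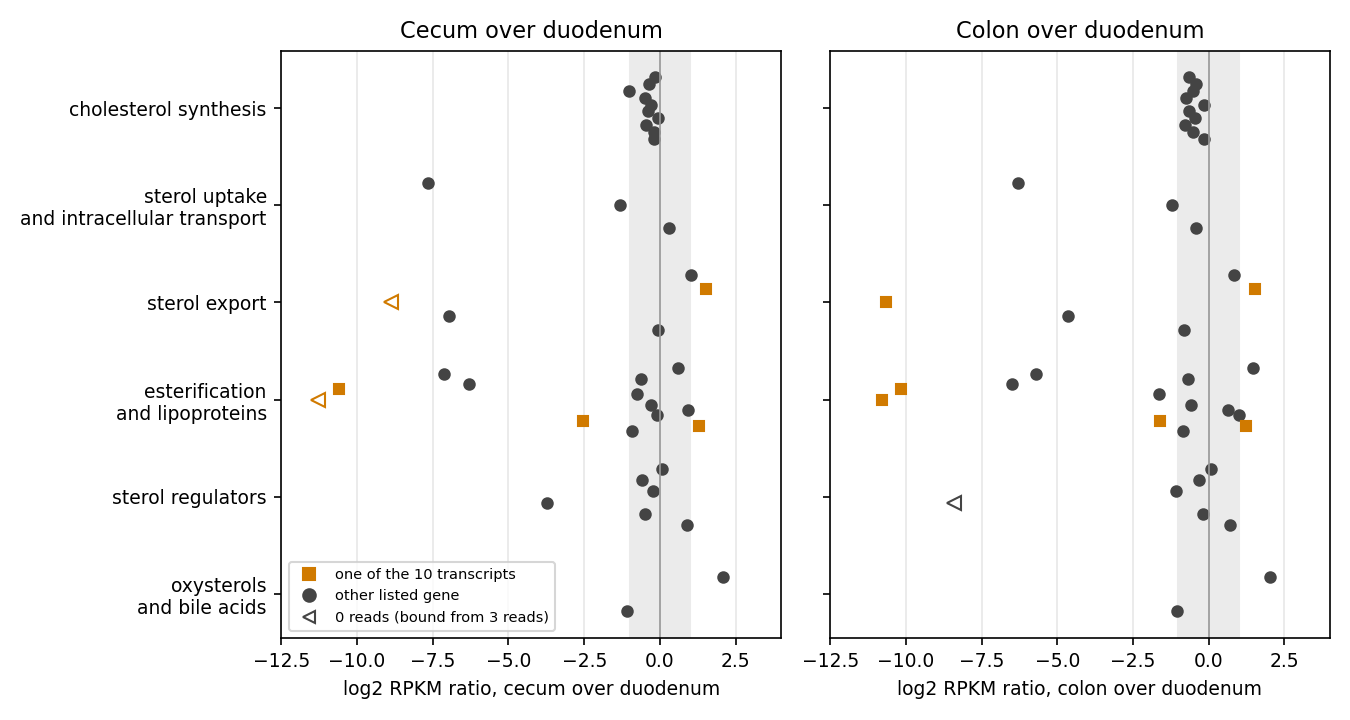
Log2 RPKM ratio over the duodenum for the matched genes of 6 cholesterol lists in the cecum and colon, with squares for members of the list of 10, circles for the other genes and open triangles for the bound set by 3 reads where a library held 0 reads; the shaded band marks less than 2-fold. The synthesis genes lie in or at the edge of the band, whereas ABCG5, ABCG8, NPC1L1, SOAT2, APOA1, APOC3 and APOA4 lie left of -4.5 in both panels.

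The 11 other transcripts of the study's list that were in the files fell into 8 loci. Of these transcripts 5 had the duodenum, 1 the cecum and 5 the colon as their highest library, and 4 of the last 5 belong to 1 locus, that of the nuclear receptor NR5A2. XM_012175938.1 was at 33.0 RPKM in the duodenum and at 0.0438 and 0.0847 RPKM in the cecum and colon. TMEM97, the sigma-2 receptor, was at 62.0, 30.8 and 27.3 RPKM. NR5A2 itself was at 6.14, 5.68 and 10.5 RPKM. As exon sums, some of these 11 differed less from the duodenum than any of the 10. Exons shared within a locus carry the reads of all its transcripts, so these sums do not give the difference of a single listed transcript.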

How the data were processed

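The authors extracted RNA with TRIzol, pooled 3 ewes per region, and sequenced paired-end reads of 100 bases. By their methods, Bowtie2 and RSEM aligned the reads to sheep genome v4.0, while the submitters' processing notes name BWA and Bowtie 0.12.2. The files name no build or chromosome, so positions are printed as given, and whether reads were counted by strand is not given in the sources used here. For each exon the authors deposited an estimated count of reads (a column headed as uniquely mapped reads, mostly not whole numbers), its RPKM, and its coverage as a percent of its length. The lowest estimated count of a deposited exon was 1 read, and 0 exons lay between 1 and 2 reads, so an exon not listed was taken as 0 reads.

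Reads were summed over the exons of a transcript and divided by exon length and the deposited read total to give its RPKM. Transcripts sharing an exon with the same position and reads were joined into 28601 loci. Exons shared by several transcripts of a locus carry the reads of all of them. The design planned a count test, and the files held estimated counts, which were rounded. The 2-sided test of Audic and Claverie was run on all 16374 loci that reached 1 RPKM in a region and adjusted by Benjamini-Hochberg, with 0 replaced by 0.001 RPKM for the fold, and was tested on simulated data. Ratios carry 95% Clopper-Pearson intervals, and levels 95% Poisson intervals, both for counting error only. The test and both intervals treat the counts summed over exons as independent reads. A spliced read can count on more than 1 exon, so the sums may be too high and the intervals too narrow. Folds against 0 reads use 3 reads per library as the bound, a set value that lies below the upper end of the 95% Poisson interval at 0 reads.

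RefSeq symbols (assembly ARS-UI_Ramb_v3.0, used for names and gene order only) were matched by accession without version for 8735 of 83089 transcripts and 7 of the 10 members. The members and lists were chosen with earlier results of these data known. Named were all members and, per list, the 3 genes with the largest log2 ratio among those of at least 10 RPKM, and SREBF2. Some genes that the rule names are not reported here. The alternatives were other folds, filters, scalings and exon summaries, added values of 0.1 and 1 RPKM, and edgeR's exact test on rounded counts with an assumed coefficient of variation of 0.4. Software was Python 3.11.15, numpy 2.4.6, pandas 2.3.3, scipy 1.17.1, matplotlib 3.10.9, R 4.3.3, limma 3.58.1 and edgeR 4.0.16.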

Additional observations from a re-analysis of the deposited data

How the results depend on the processing

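No paired analysis was possible because each region had 1 pooled library. The calls of LPL, CAV3 and ABCG1 against the duodenum were lost under the assumed spread between animals, under the 4-fold limit and under the limit of 10 RPKM. Under edgeR's exact test, in which the coefficient of variation was assumed to be 0.4, 5 of the 10 members were called between cecum and duodenum, 4 between colon and duodenum and 0 between cecum and colon, with 327, 367 and 43 loci and 4, 5 and 1 of the 33 other genes. LPL, CAV3, ABCG1, XM_012096078.1 and LIPG then lost both calls against the duodenum, and XM_012188290.1 that of the colon. With a 4-fold limit, 7, 6 and 0 members, 1009, 1051 and 291 loci and 6, 6 and 2 other genes were called. With at least 10 RPKM, which 4 members did not reach, 6, 6 and 2 members, 1144, 1091 and 327 loci and 7, 7 and 2 other genes were called, and with no filter 4389, 4212 and 1898 loci. By fold alone 4 members were called between cecum and colon. The 2 added, ABCG5 and APOC3, had 0 reads in the cecum against 1 and 5 in the colon. They passed only through the 0.001 RPKM put in place of 0. Median-ratio scaling and a read total without the 10 loci with the most reads each called 3 members there, with LIPG added, and moved the loci called higher in cecum and colon from 477 and 496 to 376 and 579, and to 363 and 654. Among exons with at least 10 reads in every library, 56 of 56, 56 of 56 and 39 of 56 lay in the direction of their transcript. Adding 1 RPKM moved 21 of 26 log2 ratios of the members and adding 0.1 RPKM moved 2. With 1 RPKM added, the ratio over the duodenum was -3.85 for ABCG5 in the colon, -8.01 for APOA4 in the cecum and 0.96, below 2-fold, for CAV3 in the colon. No member's ratio over the duodenum that could be recomputed changed direction, and those of ABCG5 and APOC3 in the cecum, with 0 reads, were not recomputed. Without the exon with the most reads, 9 members were called between cecum and duodenum, without CAV3, and APOA4 was then at -12.49 in place of -10.61 on the log2 scale.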
